A study of Homo sapiens with 12 samples.

Results

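Metallothioneins are small cysteine-rich proteins that bind zinc, copper and cadmium through their thiol groups. The zinc-sensing transcription factor MTF1 induces their genes, together with that of the zinc efflux transporter SLC30A1, by binding metal response elements in their promoters. Glucocorticoids and oxidative stress are also known inducers. Normal prostate epithelium is known for its high zinc content.

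The genes described here were the metallothioneins MT1A, MT1B, MT1E, MT1F, MT1G, MT1H, MT1M, MT1X and MT2A, and all probes carrying one of these symbols were taken. This gave 8 of the 9 genes, with 1 probe each, in each of the 2 tables, out of 16591 genes in RWPE1 and 16922 in VCaP. MT1A was not analysed here. The family was chosen by measured values of these same arrays, with earlier results known, among them a lower MT2A in VCaP and comparisons between the times, so the members' VCaP values and change with time are given as descriptions without p-values, and nothing is read from how many of them passed a threshold there. Metallothionein mRNAs resemble each other closely. The probe sequences were not used here, and how far a probe also bound the mRNA of another member was not tested.

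The samples were RNA from 2 human prostate lines, measured on 12 Illumina bead arrays in 6 groups of 2. RWPE1, an immortalised non-cancerous prostate epithelial line grown in KSFM medium, was transfected with ERG fused to GFP (GFP-ERG) or with GFP alone and taken at 72 h and at 48 h. ERG belongs to the ETS transcription factors. VCaP, a prostate cancer line with a fusion of TMPRSS2 to ERG, was grown in RPMI and given lentiviral shRNA, against ERG or scramble, both with puromycin selection. In VCaP the labels give no time. The design text states that transfections were in duplicate, but not at which step the arrays of a group part, so p-values measure the spread between these arrays, which may be technical.

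Values are normalized log2 signals, and a difference of 1 log2 unit is a 2-fold change. The range of the values was 5.95 to 15.1 in RWPE1 and 7.44 to 15.4 in VCaP. The median of all probes, 7.23 to 7.24 on the RWPE1 arrays and 7.75 on the VCaP arrays, lay close to the bottom of each range. A fold change of a dim probe can therefore understate the change in RNA. In RWPE1, 1 of the 2 ERG probes read 0.63 log2 units higher with GFP-ERG than with GFP at 72 h and 0.95 higher at 48 h. In VCaP the brightest ERG probe read 8.71 and 8.77 on the arrays labelled ERG shRNA, against 8.35 and 8.33 on the scramble arrays, which goes against the label. All VCaP directions below refer to the label alone. The basal keratins KRT5 and KRT14 and the integrin ITGB4 lay above the median in RWPE1 (3 of 3 basal markers), where 1 of 5 luminal, 2 of 7 fibroblast and 2 of 5 leukocyte markers did so. In VCaP, 6 of 6 luminal and 0 of 3 basal markers lay above the median, with 1 of 7 fibroblast and 1 of 5 leukocyte markers.

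The 9 genes lie side by side on chromosome 16, between 56608584 and 56684196 of GRCh38.p14, a stretch of 75.6 kb. Their order from the lower coordinate is MT2A, MT1E, MT1M, MT1A, MT1B, MT1F, MT1G, MT1H and MT1X. Each is short, from 0.914 kb for MT2A (chr16:56608584-56609497) to 1.73 kb for MT1X (chr16:56682470-56684196). MT4 and MT3, the tissue-restricted metallothioneins, lie just below MT2A and are not members.

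RefSeq promoter windows of GRCh38.p14, from 250 bases before the start of the gene to 50 bases after it, were at hand for 4 of the 9 members, and these 4 are shown. They cover different patterns: MT2A and MT1X were the members that differed most in VCaP, MT1B was among the genes that differed most with time in RWPE1, and MT1H stayed near the bottom of the scale in RWPE1. Each is on the plus strand, 5′ to 3′. Capitals mark matches to the core of the metal response element, searched as TGCACNC and TGCGCNC on both strands, so that a match on the minus strand reads as its reverse complement.
MT2A, chr16:56608334-56608633: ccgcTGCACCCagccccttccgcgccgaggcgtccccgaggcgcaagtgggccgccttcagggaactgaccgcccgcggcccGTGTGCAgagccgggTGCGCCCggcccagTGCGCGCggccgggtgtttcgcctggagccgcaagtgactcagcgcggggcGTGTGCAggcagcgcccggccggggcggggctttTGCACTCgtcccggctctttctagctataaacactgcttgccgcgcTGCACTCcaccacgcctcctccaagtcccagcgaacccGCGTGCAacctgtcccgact
MT1H, chr16:56669564-56669863: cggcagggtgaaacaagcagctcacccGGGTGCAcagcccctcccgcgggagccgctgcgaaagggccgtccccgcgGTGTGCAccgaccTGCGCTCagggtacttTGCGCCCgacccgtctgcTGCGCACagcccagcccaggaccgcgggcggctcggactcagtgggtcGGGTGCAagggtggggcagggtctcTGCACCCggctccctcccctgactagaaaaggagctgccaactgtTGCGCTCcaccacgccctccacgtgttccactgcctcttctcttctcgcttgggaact
MT1X, chr16:56682220-56682519: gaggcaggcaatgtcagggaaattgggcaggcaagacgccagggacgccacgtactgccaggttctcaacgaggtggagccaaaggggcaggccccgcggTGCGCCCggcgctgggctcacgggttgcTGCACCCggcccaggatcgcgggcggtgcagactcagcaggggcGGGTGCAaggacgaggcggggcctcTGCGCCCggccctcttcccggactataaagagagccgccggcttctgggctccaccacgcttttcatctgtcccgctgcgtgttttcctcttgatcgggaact
MT1B, chr16:56651636-56651935: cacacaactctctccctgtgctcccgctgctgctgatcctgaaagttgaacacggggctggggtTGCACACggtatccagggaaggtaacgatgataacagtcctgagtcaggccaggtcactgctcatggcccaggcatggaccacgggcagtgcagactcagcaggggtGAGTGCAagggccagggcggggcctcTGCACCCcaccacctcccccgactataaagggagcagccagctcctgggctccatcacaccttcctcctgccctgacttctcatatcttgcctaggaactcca
MT2A and MT1H each held 8 matches, MT1X held 4 and MT1B held 3, and no matches overlapped. Of 35116 promoters of the same length, 29.6% held at least 1 match and the median was 0. At least 8 matches were found in 7 of these promoters (0.0199%), at least 4 in 0.601% and at least 3 in 2.30%. In MT1X, MT1B and MT1H a match began 53 bases before the start. The GGAA core that ETS factors bind, searched on both strands, occurred 2 times in MT2A, 2 times in MT1H, 4 times in MT1X and 3 times in MT1B, against a median of 3. At least 1 GGAA was present in 95.5% of all promoters. A match is a description of the letters in these windows only.

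In RWPE1 the metallothioneins fell into 3 patterns with time. MT1M, MT1G, MT1B and MT1F read many-fold higher at 72 h than at 48 h with either construct. MT1E was higher by less, and MT1X, MT2A and MT1H differed by at most 0.06 log2 units. In bulk RNA, a larger share of cells with an mRNA and more of that mRNA per cell cannot be told apart.

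MT1M had the largest change of all 20589 probes in both GFP-ERG and GFP cells. In GFP-ERG cells it read 13.17 and 12.89 at 72 h, against 8.03 and 8.08 at 48 h. In GFP cells it read 13.15 and 13.05 at 72 h, against 7.61 and 7.64 at 48 h. Its 48 h readings lay only a little above the median of all probes, while its 72 h readings lay above 98.3% of the probes of their array or more. The difference in MT1M was 4.97 log2 units in GFP-ERG cells (SE 0.08, 31.4-fold) and 5.47 in GFP cells (SE 0.08, 44.4-fold).

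MT1G, which lies next to MT1H in the cluster, changed the most after MT1M with either construct. With GFP-ERG it read 13.69 and 13.55 at 72 h, against 9.75 and 9.77 at 48 h. With GFP the MT1G readings were 13.75 and 13.80 at 72 h, against 9.70 and 9.45 at 48 h. The arrays of the times were far apart, and the difference was 3.86 log2 units with GFP-ERG (14.5-fold) and 4.20 with GFP (18.4-fold).

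MT1B was below the median of all probes at 48 h and well above it at 72 h. It read 10.06 and 10.04 at 72 h in GFP-ERG cells, against 6.68 and 6.80 at 48 h. In GFP cells MT1B read 10.33 and 10.07 at 72 h, against 6.66 and 6.73 at 48 h. The change in MT1B was 3.31 log2 units with GFP-ERG (9.89-fold) and 3.50 with GFP (11.3-fold). The 48 h signals were near the bottom of the scale, which can make these folds understate the change in RNA. How much of the 72 h signal came from mRNA of other members was not tested, so the folds could also overstate it.

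MT1F was the member whose change with time differed most between the constructs. It read 14.05 and 14.05 at 72 h in GFP-ERG cells, against 12.33 and 12.32 at 48 h, a difference of 1.73 log2 units (3.31-fold). In GFP cells MT1F read 14.16 and 14.15 at 72 h, against 11.20 and 11.22 at 48 h, a difference of 2.95 log2 units (7.70-fold). The 72 h arrays of both constructs lay within 0.11 log2 units of each other on average, so the constructs were apart at 48 h. At 72 h MT1F lay at the 99.5th percentile of each array, near the top of the scale. Whether this narrowed a difference between the constructs at 72 h was not tested.

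MT1E was brighter at 72 h by less than 1 log2 unit. It read 7.94 and 7.90 at 72 h in GFP-ERG cells, against 7.25 and 7.30 at 48 h, and 7.68 and 7.64 at 72 h in GFP cells, against 7.21 and 7.24 at 48 h. The arrays of the times did not overlap, and the differences were 0.65 log2 units with GFP-ERG (1.57-fold) and 0.43 with GFP (1.35-fold).

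MT1X and MT2A stayed at one level on all 8 arrays. MT1X lay between 14.76 and 14.88 and was among the 27 brightest of 20589 probes on each array. MT2A lay between 14.51 and 14.65 and was among the 57 brightest. Both sat close to the highest value in the table, 15.1, which leaves little room for a higher reading, and whether these probes had reached the limit of the scanner was not tested. MT1H lay at the opposite end, between 6.20 and 6.39 and at the 0.457th to 5.01th percentile of its array, the 1 member whose group means were all below the median. A higher reading of MT1X and MT2A, or a lower one of MT1H, could hardly have been seen at these levels.

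**Figure D1:**
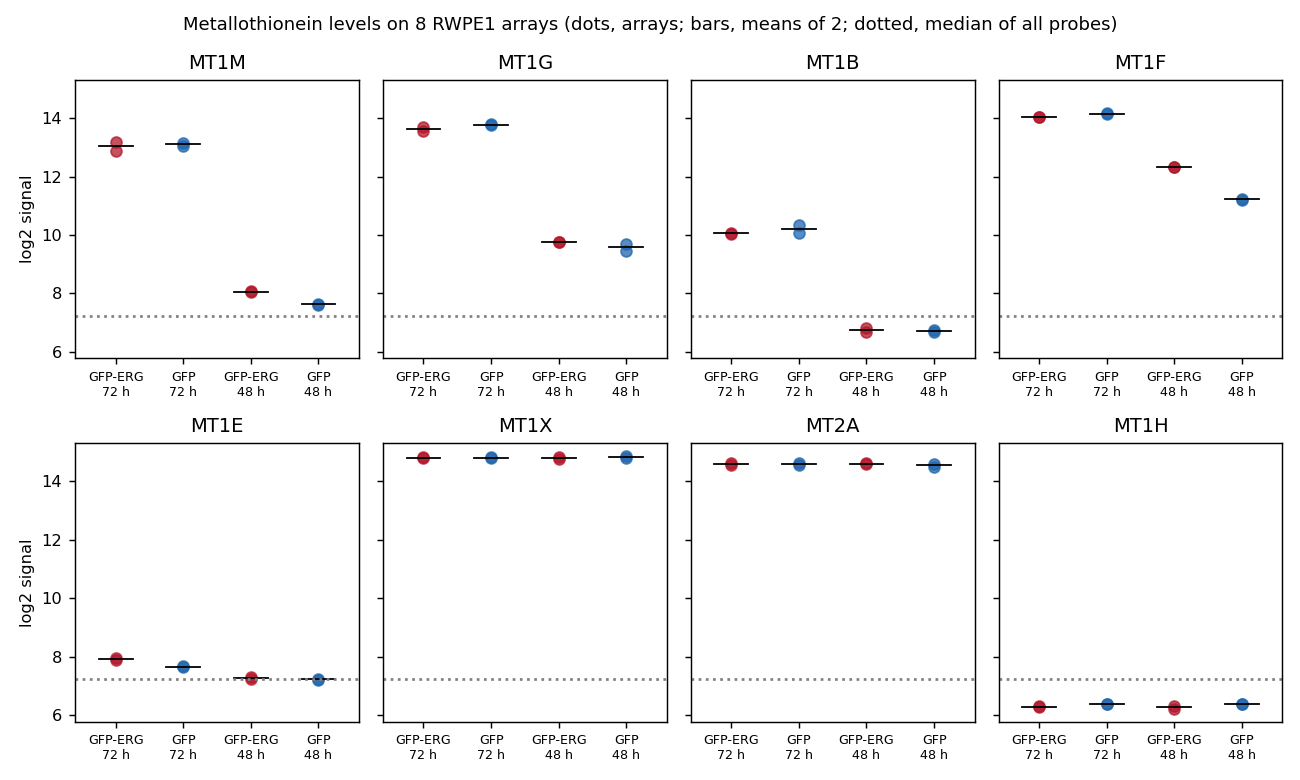
Log2 signal (vertical axis) of the 8 measured metallothioneins in RWPE1, for GFP-ERG (red) and GFP (blue) at 72 h and 48 h; dots are arrays, bars are means of 2 arrays, and the dotted line is the median of all probes. MT1M, MT1G, MT1B and MT1F stand higher at 72 h, MT1E does so by less, MT1X and MT2A stay near the top of the scale and MT1H stays below the median.

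Of the 8 measured members, 5 lay past the limma threshold as higher at 72 h in GFP-ERG cells and 5 in GFP cells, where 11.6% of all probes were called higher in GFP-ERG cells and 10.5% in GFP cells. The family was chosen with this comparison known, so the counts are a description and no test of the family. The median change of the members was 1.19 log2 units with GFP-ERG and 1.69 with GFP, against 0.00 for all probes in both. Changes this large were rare: 5 probes gained 3 log2 units or more in GFP-ERG cells and 4 in GFP cells, and MT1M, MT1G and MT1B were among them in both. The others, named here after their values were seen, were the fatty acid carrier FABP4, at 3.60 in GFP-ERG cells and 3.22 in GFP cells, and the protease inhibitor SERPINA3, at 3.17 in GFP-ERG cells and 2.41 in GFP cells. The GFP-ERG and GFP time comparisons share no arrays, but they set the same times against each other. Anything else that differed between the 72 h and the 48 h samples cannot be told apart from time.

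**Figure D2:**
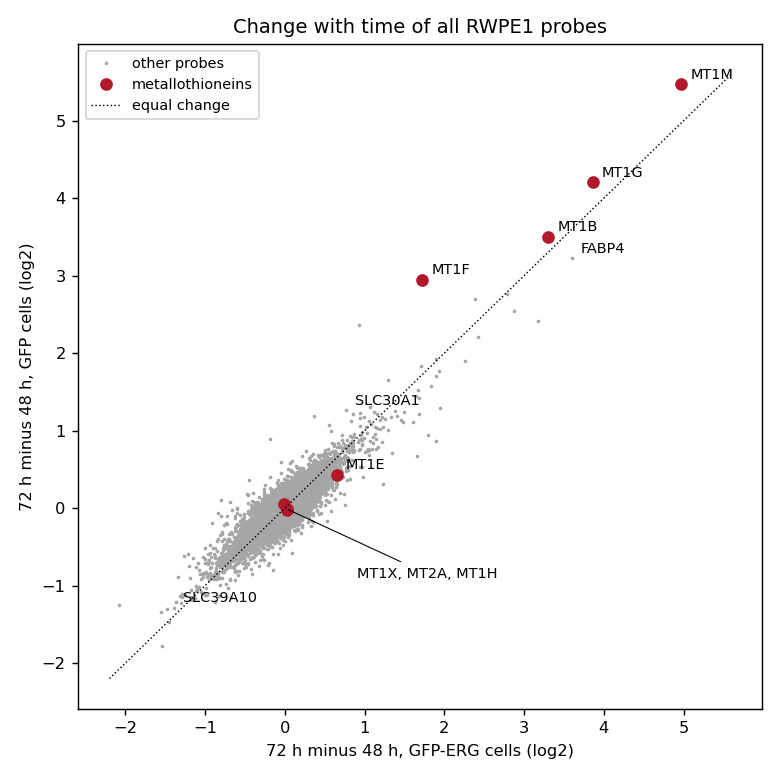
Change with time (log2, 72 h minus 48 h) of all 20589 RWPE1 probes, in GFP-ERG cells on the horizontal axis and in GFP cells on the vertical axis; the dotted line marks equal change and red dots are metallothioneins. MT1M, MT1G and MT1B lie far out near the line, while MT1F lies above it, at 1.73 in GFP-ERG cells and 2.95 in GFP cells.

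GFP-ERG against GFP asked which metallothioneins differ with ERG at a given time. At 48 h, MT1F and MT1M were higher with GFP-ERG, and at 72 h MT1E was. MT1F, given per array above, was 1.11 log2 units higher with GFP-ERG at 48 h (SE 0.06, 2.16-fold, limma, Benjamini-Hochberg, adjusted p = 3.41e-11), the 24th largest rise of all probes. MT1M at 48 h read 8.03 and 8.08 with GFP-ERG and 7.61 and 7.64 with GFP, which is 0.43 log2 units higher (SE 0.08, 1.35-fold, limma, adjusted p = 0.000709). In both genes the arrays of the constructs did not overlap at 48 h.

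The other 6 members did not pass at 48 h. MT1G was 0.18 log2 units higher with GFP-ERG (95% interval 0.03 to 0.34, limma, adjusted p = 0.181). MT2A differed by 0.05, with an interval of -0.08 to 0.19, and MT1X by -0.05, with an interval of -0.18 to 0.08, both at the top of the scale. At 48 h 2 of 8 members were called, against 7.77% of all probes.

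At 72 h, MT1E was 0.26 log2 units higher with GFP-ERG (SE 0.06, 1.20-fold, limma, Benjamini-Hochberg, adjusted p = 0.0119), with arrays at 7.94 and 7.90, against 7.68 and 7.64 with GFP. This call was lost without GFP array 2 of 72 h and without GFP-ERG array 1 of 72 h, and the difference was between 0.24 and 0.29 in every fit that left out 1 array. MT1F differed by -0.11 log2 units (95% interval -0.23 to 0.02, limma, adjusted p = 0.418) and MT1M by -0.07 (interval -0.23 to 0.09, adjusted p = 0.736). At this time 1 of 8 members was called, against 5.67% of all probes. For the mean of both times MT1E, MT1F and MT1M were called as higher, 3 of 8 members, against 11.1% of all probes. That count was 1 to 3 in fits without 1 array.

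**Figure D3:**
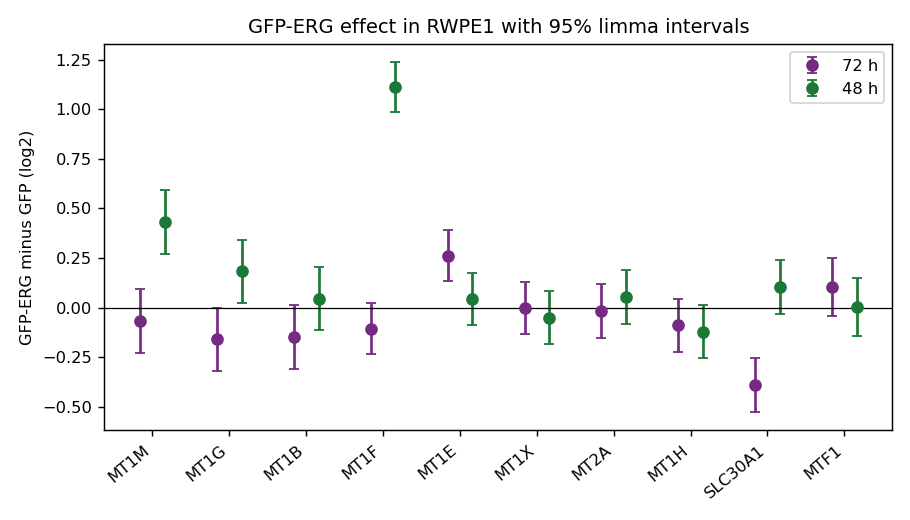
Difference between GFP-ERG and GFP (log2, vertical axis) for the 8 metallothioneins, the zinc exporter SLC30A1 and the zinc sensor MTF1, at 72 h (purple) and 48 h (green); bars are 95% limma intervals. MT1F stands at -0.11 at 72 h and 1.11 at 48 h, and the interval of SLC30A1 lies below 0 at 72 h and includes 0 at 48 h.

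Whether the GFP-ERG effect depended on time was read from the interaction term of the limma fit. For MT1F the effect at 72 h minus that at 48 h was -1.22 log2 units (SE 0.09). Of 20589 probes only that of the elastase inhibitor PI3, named after its values were seen, had a lower value. For MT1M it was -0.50 (SE 0.11), just past the limma threshold. It missed the threshold with the array number as a block, without dim probes and with probes of a gene averaged. In fits without 1 array its value lay between -0.64 and -0.36. MT1F and MT1M were the members past the threshold, 2 of 8, against 0.403% of all probes. This difference is also the change with time with GFP-ERG minus that with GFP. The time comparisons were known when the family was chosen. The members' values here are therefore given without p-values, and the count is a description and no test of the family. MT1G, which did not pass, had a value of -0.34 (95% interval -0.57 to -0.12). The levels of MT1F were thus highest at 72 h with either construct, whose difference did not pass the test, then GFP-ERG at 48 h, then GFP at 48 h. The 72 h levels lay near the top of the scale, and whether this added to the interaction of MT1F was not tested.

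The sensor and the exporter of the pathway were measured as well. SLC30A1, the plasma membrane zinc exporter, was brighter at 72 h, with 10.05 and 10.05 in GFP-ERG cells, against 9.31 and 9.25 at 48 h, and with 10.39 and 10.50 in GFP cells, against 9.21 and 9.15 at 48 h. Its change was 0.77 log2 units with GFP-ERG (1.71-fold) and 1.26 with GFP (2.40-fold). At 72 h it was lower with GFP-ERG, at -0.39 log2 units (SE 0.07, limma, Benjamini-Hochberg, adjusted p = 0.000389), while at 48 h it differed by 0.10 (limma, adjusted p = 0.453). The effect on SLC30A1 at 72 h minus that at 48 h was -0.49 (SE 0.09, limma, adjusted p = 0.0137). That call was lost without array 2 of GFP at either time, array 1 of GFP-ERG at 48 h or either array of GFP-ERG at 72 h, with values from -0.55 to -0.44 over all fits without 1 array. MT1F and SLC30A1 thus both had a smaller change with time in GFP-ERG cells, but the constructs were apart at 48 h in MT1F and at 72 h in SLC30A1.

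MTF1, the zinc-sensing factor itself, read 9.56 and 9.72 at 72 h in GFP-ERG cells, against 9.26 and 9.38 at 48 h. In GFP cells it read 9.57 and 9.50 at 72 h, against 9.30 and 9.33 at 48 h. The differences in MTF1 were small, 0.32 log2 units with GFP-ERG and 0.22 with GFP. With ERG it differed by 0.11 at 72 h (limma, adjusted p = 0.495) and by 0.005 at 48 h (limma, adjusted p = 0.987).

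Among the 24 zinc transporters, 6 were called higher and 5 lower at 72 h in GFP-ERG cells, and 5 higher and 4 lower in GFP cells. Of all genes, 12.8% were called higher and 12.5% lower in GFP-ERG cells, and 11.6% were higher and 11.05% lower in GFP cells. Besides SLC30A1, the zinc exporter SLC30A2 was higher by 1.06 log2 units with GFP-ERG and 1.30 with GFP. The zinc importer SLC39A10 was lower, at -1.39 with GFP-ERG and -1.28 with GFP, the 6th and the 5th lowest value of all probes. The importer SLC39A8 stood at -0.57 with GFP-ERG and -0.45 with GFP. The zinc transporters as a list had a median change of 0.02 with GFP-ERG and 0.00 with GFP. With GFP-ERG against GFP, 0 were higher and 2 lower at 72 h (SLC30A1 at -0.39 and SLC39A7 at -0.24), and 1 was higher and 1 lower at 48 h (SLC30A3 at 0.40 and SLC39A7 at -0.27). Over all genes 3.11% were higher and 2.99% lower at 72 h, and 4.70% were higher and 3.79% lower at 48 h.

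Genes that respond to the other known inducers were counted in the same way. Of all genes, 12.8% were called higher and 12.5% lower at 72 h in GFP-ERG cells, and 11.6% and 11.05% in GFP cells. With GFP-ERG against GFP, 3.11% were higher and 2.99% lower at 72 h, and 4.70% and 3.79% at 48 h. Whether the counts of a list differed from these shares was not tested. Of 10 glucocorticoid response genes, 7 were called lower and 1 higher at 72 h with either construct. The glucocorticoid-induced FKBP5 was lower, at -0.79 log2 units with GFP-ERG and -0.82 with GFP, and TSC22D3 stood at -0.78 and -0.72. The kinase SGK1 was higher by 0.49 with GFP-ERG and 0.66 with GFP. The median of this list was -0.52 with GFP-ERG and -0.38 with GFP. With ERG, 1 of its 10 genes was lower at 72 h (the receptor NR3C1 at -0.25 by its brightest probe), and 3 were higher at 48 h (KLF9 at 0.44, DUSP1 at 0.36 and SGK1 at 0.24). Another NR3C1 probe above the median was further apart. It read 7.50 and 7.44 with GFP-ERG at 72 h, against 7.90 and 8.12 with GFP. At 48 h it read 7.82 and 7.64 with GFP-ERG, against 8.48 and 8.33 with GFP. The remaining NR3C1 probe lay below the median. Of 12 oxidative stress genes measured, 4 were called higher and 0 lower at 72 h with GFP-ERG, and 3 higher and 1 lower with GFP. The quinone reductase NQO1 was higher by 0.44 with GFP-ERG and 0.68 with GFP, and the cystine carrier SLC7A11 was lower with GFP, at -0.59. With ERG, SLC7A11 was lower, at -0.27 at 72 h and -0.77 at 48 h, as was the thioredoxin reductase TXNRD1, at -0.25 at 72 h and -0.29 at 48 h. Of 16 copper handling genes, 2 were called higher and 1 lower at 72 h with either construct, the lower one being the copper transporter SLC31A2 at -0.81 with GFP-ERG and -0.76 with GFP. With ERG, 0 of these 16 were called at 72 h, and 2 were at 48 h, COX11 at 0.28 and SCO1 at -0.26.

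MT3, a metallothionein best known from brain, was below the median on all 8 arrays. It read 6.91 and 6.86 with GFP-ERG at 48 h, against 6.63 and 6.70 with GFP, a difference of 0.22 log2 units (limma, Benjamini-Hochberg, adjusted p = 0.0399). At 72 h MT3 read 6.90 and 6.85 with GFP-ERG, against 6.68 and 6.64 with GFP, a difference of 0.21 (limma, adjusted p = 0.0608). MT4, known from stratified squamous epithelium, stayed between 6.59 and 6.76.

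In VCaP, the members that were bright in control cells were lower on the arrays labelled ERG shRNA, and the other members were near the bottom of the scale in both groups. MT2A read 8.54 and 8.48 on the ERG shRNA arrays, against 10.53 and 10.73 on the scramble arrays. MT1X read 8.95 and 8.63 on the ERG shRNA arrays, against 10.75 and 10.88 on the scramble arrays. The groups were far apart for both genes, at -2.12 log2 units for MT2A (SE 0.08, 4.35-fold lower) and -2.03 for MT1X (SE 0.13, 4.07-fold lower). MT2A had the 13th lowest change and MT1X the 20th lowest of all 24525 probes.

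MT1E read 8.05 and 7.91 on the ERG shRNA arrays, against 9.46 and 9.44 on the scramble arrays. MT1F read 8.25 and 8.15 on the ERG shRNA arrays, against 9.32 and 9.53 on the scramble arrays. Neither gene's groups overlapped, and the differences were -1.47 log2 units for MT1E (SE 0.06, 2.78-fold lower) and -1.23 for MT1F (SE 0.09, 2.34-fold lower).

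MT1H, MT1M, MT1B and MT1G differed by less than 0.1 log2 units. MT1H read 7.67 and 7.76 on the ERG shRNA arrays and 7.80 and 7.79 on the scramble arrays, near the median of all probes, a difference of -0.08 (95% interval -0.21 to 0.06). MT1M, MT1B and MT1G were below the median in both groups, between 7.53 and 7.64, and their differences were -0.06, -0.01 and 0.01. A fall in these 3 genes could not be seen from so low a level. MT1M, MT1G and MT1B, the genes that changed most in RWPE1, were thus those near the bottom in VCaP, and MT1X and MT2A, at one level in RWPE1, were those with the largest difference in VCaP. Signals of the 2 lines were normalized separately and are not compared with each other. The lines were also measured on different types of Illumina array. Whether the probes of a member read alike on both types was not tested, so this contrast may lie in the probes or in the cells.

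**Figure D4:**
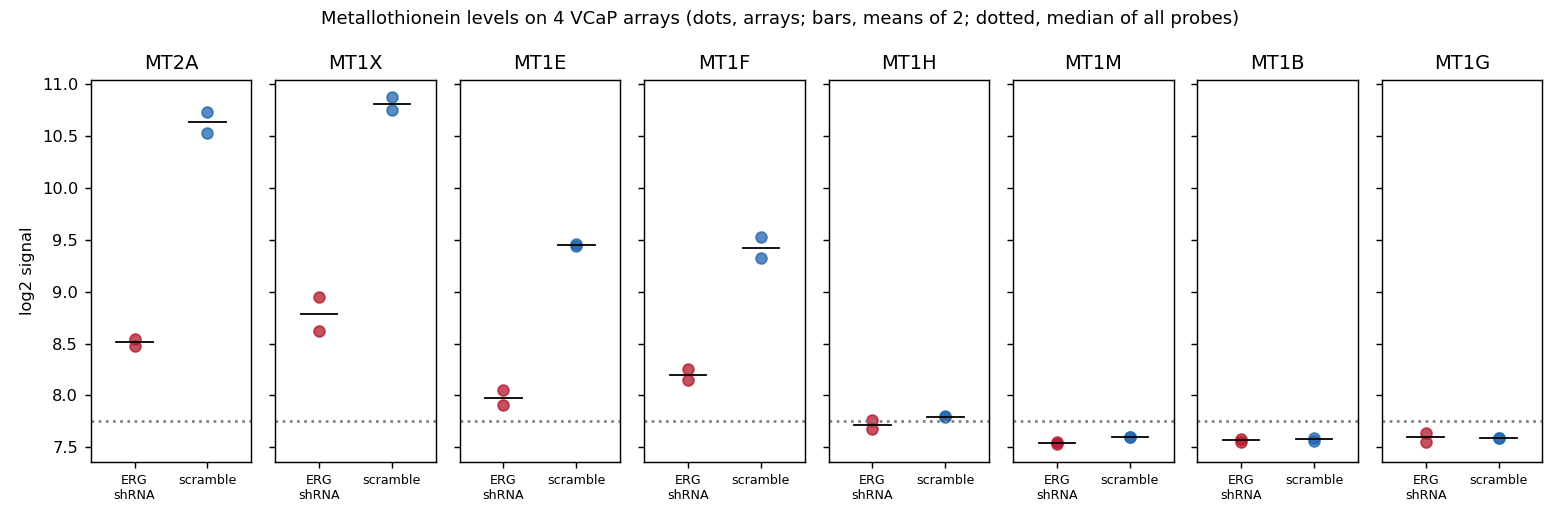
Log2 signal (vertical axis) of the 8 measured metallothioneins in VCaP, on arrays labelled ERG shRNA (red) and scramble (blue); dots are arrays, bars are means of 2 arrays and the dotted line is the median of all probes. MT2A, MT1X, MT1E and MT1F stand lower on the ERG shRNA arrays without overlap, and MT1M, MT1B and MT1G lie below the median in both groups.

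In all, 4 of 8 members lay past the limma threshold as lower on the ERG shRNA arrays, where 1.54% of all probes were called lower. With the lower MT2A known when the family was chosen, this count too is a description and no test. The 4 calls were lost in the fit with the array number as a block and without either scramble array, while the differences themselves stayed between -2.22 and -1.12 in every fit. The median over the members was -0.65 log2 units, against 0.00 over all probes. MT3 read 7.66 and 7.65 on the ERG shRNA arrays, against 7.96 and 8.10 on the scramble arrays, a difference of -0.37 (limma, adjusted p = 0.0918).

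Short genes were lower more often than long ones on the ERG shRNA arrays, and every metallothionein is short. Of all 1429 genes under 3 kb, dim ones included, 5.32% were lower by 1 log2 unit or more, with a median of -0.01. Of all 5448 genes over 50 kb, 0.349% were, with a median of 0.02. Among genes whose higher group mean reached the median, a limit that 5 of the 8 members passed, 16.9% of the 449 genes that span under 3 kb were lower by 1 log2 unit or more, and their median was -0.20. The share was 6.54% of 1590 genes of 3 to 10 kb (median -0.09), 2.07% of 4345 genes of 10 to 50 kb (median 0.03) and 0.567% of 3349 genes over 50 kb (median 0.11). MT2A, MT1X and MT1E lay below the 10th percentile of the genes under 3 kb, which was -1.28, and MT1F lay just above it. The part of gene length in these values was not tested. In RWPE1, genes whose highest group mean reached the median of all probes were taken first. Among them the median change with time of genes under 3 kb was -0.01 with GFP-ERG and -0.03 with GFP. The share of these short genes that was higher at 72 h by 1 log2 unit or more was 2.19% with GFP-ERG and 1.97% with GFP. It was 0.355% and 0.258% of the genes over 50 kb. MT1M, MT1G, MT1B and MT1F are themselves among these 456 short genes and in both shares. The share of the short genes that was lower by 1 log2 unit or more was 1.32% with either construct, against 0.355% and 0.226% of the genes over 50 kb. Of all 1313 genes under 3 kb, dim ones included, 0.762% were higher by 1 log2 unit or more with GFP-ERG and 0.685% with GFP. Of all 5395 genes over 50 kb, 0.204% and 0.148% were.

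**Figure D5:**
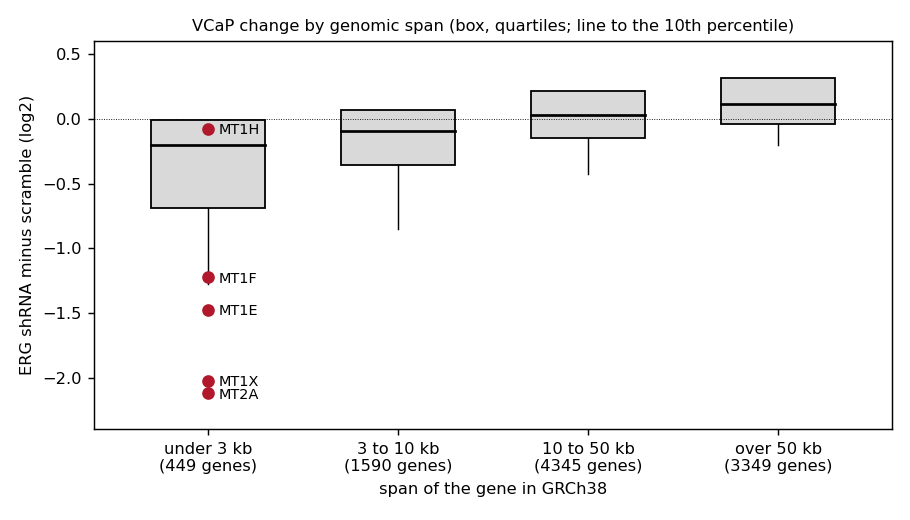
Difference between ERG shRNA and scramble arrays in VCaP (log2, vertical axis) by span of the gene in GRCh38.p14, for genes whose higher group mean reached the median; boxes are quartiles with the median, lines reach down to the 10th percentile, and red dots are the metallothioneins that passed this limit. The median runs from -0.20 under 3 kb to 0.11 over 50 kb, and MT2A, MT1X and MT1E lie below the 10th percentile of the shortest class.

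The other genes of metal handling and the inducer lists were also read in VCaP. MTF1 read 8.27 and 8.11 on the ERG shRNA arrays, against 8.39 and 8.48 on the scramble arrays, a difference of -0.25 (limma, Benjamini-Hochberg, adjusted p = 0.211). SLC30A1 differed by -0.06 (limma, adjusted p = 0.855), and 0 of 24 zinc transporters were called, against 1.66% of all genes called higher and 1.73% lower. Of 15 copper handling genes, 1 was called higher, the metalloreductase STEAP2 by 1.05 log2 units, and 1 lower, the copper chaperone ATOX1 at -2.19. Of 12 oxidative stress genes, 0 were called higher and 2 lower, the redox proteins TXN and PRDX1 at -1.18 and -1.17. Of 10 glucocorticoid response genes, 1 was called higher, FKBP5 by 0.81, and 0 lower. The same shares of all genes, 1.66% higher and 1.73% lower, stand beside these lists, whose counts were not tested.

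Likeness to MT2A over the 8 RWPE1 arrays was taken as Pearson's r with each of 8992 genes whose mean lay at or above the median, over arrays that form 4 groups of 2. The closest were SLC38A7 (r = 0.859), CCSER2 (0.853), GRK6 (0.848), CDC37 (0.843) and TUBA1B (0.829). MT2A itself varied by only 0.14 log2 units over these arrays, so the order describes small differences at the top of the scale.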

How the data were processed

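Per the labels' protocols, total RNA was isolated with Trizol, labelled with biotin by in vitro transcription and hybridised to 1-colour bead arrays. The deposited values were read as log2 signals because of their range. The labels do not say how the authors corrected background and normalized. Sorted values of the arrays of a table lay within 0.0391 (RWPE1) and 0.0002 (VCaP) log2 units of their mean, and the values were used as deposited, with no further normalization. Probes were named from the platform annotation: 18332 of 20589 RWPE1 probes and 21833 of 24525 VCaP probes had 1 symbol, 0 had several, and 2257 and 2692 had none. Symbols were checked through Entrez identifiers in the RefSeq table of GRCh38.p14, which changed 0.

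1 limma fit held the 8 RWPE1 arrays in 4 groups, and a second held the 4 VCaP arrays (limma 3.58.1 in R 4.3.3, lmFit, contrasts.fit and eBayes, 2-sided). The time and VCaP comparisons were fitted in the same way. P-values were adjusted by Benjamini-Hochberg over all probes of a table, with a threshold of 0.05; standard errors (SE) and 95% intervals are limma's. With 2 arrays a group, the number of arrays limits the precision.

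Every measured member was named whatever its values, with MTF1, SLC30A1, MT3, MT4, each ERG probe and up to 4 called genes of each list. A gene on a list was represented by its brightest probe. The members and lists were chosen with earlier results of these data known. Alternatives were the array number as a block, trended and robust eBayes, a filter on probes below the median, 1 value per gene (brightest probe or mean), median centring, quantile normalization, only the groups compared, and leaving out each array. In RWPE1 the array numbers showed no pairing of the samples: correlations of the deviations of same-numbered arrays lay between -0.0529 and 0.0694. VCaP has only 2 numbers (0.168), from which a pairing could not be judged. Figures were drawn with Python 3.11.15, pandas 2.3.3 and matplotlib 3.10.9.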

Additional observations from a re-analysis of the deposited data

Results flagged for a closer look

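The GFP-ERG effect differed between the times in 2 of the metallothioneins and in the zinc exporter SLC30A1, by the interaction term of the limma fit. For MT1F the effect at 72 h minus that at 48 h was -1.22 log2 units, with an effect of -0.11 at 72 h and 1.11 at 48 h. For MT1M it was -0.50, with -0.07 at 72 h and 0.43 at 48 h, and it ranged from -0.64 to -0.36 under the alternatives. It missed the threshold with the replicate block, with the filter on dim probes and with the mean of the probes of a gene. For SLC30A1 it was -0.49, with -0.39 at 72 h and 0.10 at 48 h, and the call held in 10 of 15 alternatives (limma, adjusted p from 0.0122 to 0.141). The value for MT1F ranged from -1.23 to -1.20 under the alternatives. Each of these differences is also the change with time with GFP-ERG minus that with GFP. The family was chosen with the time comparisons known, so they are descriptions and no test of the family.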

How the results depend on the processing

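Of 775 values of single genes under the alternatives, 730 kept their direction and side of the threshold, 29 lost the call, 1 gained it and 15 changed sign. The count of 5 members higher at 72 h held with either construct under all alternatives run, as did the calls for MT1F and MT1M at 48 h. With the replicate block the count of members lower in VCaP was 0 in place of 4, with 0 of all 24525 probes called in place of 719; this call count was 2015 with trended eBayes and 1123 with the filter on dim probes. Leaving out 1 array gave 0 to 4 members there, and 0 to 2728 probes (0 without either scramble array, 1292 without ERG shRNA array 2 and 2728 without ERG shRNA array 1). In RWPE1 the count for the difference between times was 1 in place of 2 with the replicate block, with the filter on dim probes and with the mean of the probes of a gene, and 1 to 2 without 1 array. Without 1 array, the count at 72 h was 0 to 1, that for the mean of both times 1 to 3 and that at 48 h 2 to 3, where MT1G passed at 0.31 without GFP array 1 of 48 h (limma, adjusted p = 0.0439). The replicate block changed no other count. Sign changes all came from leaving out 1 array and touched members with no call: in VCaP MT1B ranged from -0.027 to 0.0074 and MT1G from -0.032 to 0.049; with ERG at 48 h MT1B from -0.014 to 0.11; with ERG at 72 h MT1M from -0.21 to 0.071, MT1X from -0.014 to 0.0099 and MT2A from -0.062 to 0.031. For the difference between times MT1H ranged from -0.026 to 0.090. With time in GFP-ERG cells MT1H ranged from -0.032 to 0.084, MT1X from -0.0099 to 0.061 and MT2A from -0.059 to 0.034. With time in GFP cells MT1H ranged from -0.021 to 0.0093 and MT1X from -0.064 to 0.018. Signals near the bottom of the scale limit what could be seen of a change (MT1H in RWPE1, and MT1M, MT1B and MT1G in VCaP). The same holds near its top, for MT1X and MT2A in RWPE1 and for MT1F there at 72 h.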
